A study of Mus musculus with 8 samples.

Results

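The 35 genes described here encode aminoacyl-tRNA synthetases and a pair of scaffold proteins that hold several of them together. They were chosen by symbol among the array's single-gene probe sets, and where a gene had several, the one with the highest mean was used. Of 19938 genes measured, 18 are cytosolic forms, 15 are mitochondrial forms (symbols ending in 2) and 2 are the scaffolds Aimp1 and Aimp2. Iars was the 1 member with more than 1 probe set. The probe set for Aars is shared with Exosc6, so Aars was left out, and Dars was not analysed here.

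NPcis mice carry linked mutant alleles of Nf1 and the tumour suppressor Trp53, and RNA was taken from their primary nerve sheath sarcomas (malignant peripheral nerve sheath tumours). All groups share this genotype. The groups were rapamycin (an mTORC1 inhibitor, 5 mg/kg by intraperitoneal injection), PD-0325901 (which inhibits MEK, dosed at 1.5 mg/kg by gavage more than once a day), both drugs at those doses, here called the combination, and vehicle, each for 14 hours and each with 2 arrays. The labels give neither the age of the mice nor whether the arrays of a group came from separate animals, so the tests measure only the spread between these arrays. Values are on the log2 scale, and since probe sets differ in brightness, no level is compared between members as an amount of transcript.

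An aminoacyl-tRNA synthetase joins an amino acid to its tRNA, the step that fixes which amino acid a codon calls for. Mitochondria translate their own messages with a separate set of synthetases, which are encoded in the nucleus and imported. The genes Gars and Kars each supply both compartments. Many cytosolic synthetase genes belong to the amino acid response, in which the transcription factor ATF4 raises genes for amino acid synthesis, uptake and charging, and mTORC1 is known to increase the translation of ATF4. The comparison of arrays with and without rapamycin therefore asks how these transcripts stood when mTORC1 was inhibited, and that of arrays with and without PD-0325901 asks the same of MEK.

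Facts of the whole series bear on what follows. Arrays correlated at 0.947 to 0.983 within groups (4 pairs) and at 0.953 to 0.980 between groups (24 pairs). Of 9 Schwann lineage markers listed, 7 were measured, and 5 of these, among them Sox10, S100b and Erbb3, had a mean below the median of the gene means (8.25). Markers of macrophages and fibroblasts were also measured, with Csf1r at 11.39 to 12.22 and Col1a1 at 12.32 to 13.11 among the brightest of their lists and Cd163 (6.86 to 8.68) and Lum (7.82 to 11.93) among the dimmest. These are bulk tumours, in which fewer cells of a type and less RNA per cell cannot be told apart.

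With rapamycin, alone or in the combination, most cytosolic synthetase transcripts had lower values and the mitochondrial ones were divided. The rapamycin main effect is the mean of rapamycin minus vehicle and combination minus PD-0325901. Of the 18 cytosolic members 15 were lower, with a median log2 difference of -0.23, against a median of -0.01 over all genes. Of the 15 mitochondrial members 9 were lower, with a median of -0.06, and both scaffolds were lower (Aimp2 -0.43, SE 0.19, and Aimp1 -0.15, SE 0.12). Over all genes, 53.8% had a difference below 0.

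No member passed an adjusted p of 0.05 in limma for this main effect, where 0% of all 19938 genes did. The smallest adjusted p of a member was 0.7523. At an unadjusted p under 0.05, 4 cytosolic members (Yars, Vars, Gars and Cars), 2 mitochondrial members (Yars2 and Rars2) and neither scaffold were lower, beside 2.4% of all genes. At that level 0 members were higher, beside 3.15% of all genes. Leaving out either vehicle array, array 1 of PD-0325901 or array 1 of the combination gave a cytosolic count of 2, and leaving out array 2 of rapamycin gave 6. The cytosolic median was -0.15 without combination array 1 and within -0.16 to -0.34 without any other single array. The mitochondrial count was 0 when array 1 of rapamycin or of PD-0325901 was left out, 4 when array 2 of rapamycin was, and 1 when any vehicle or combination array was.

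Yars, the tyrosyl-tRNA synthetase of the cytosol, measured 10.00 and 9.83 on the rapamycin arrays and 9.74 and 10.09 on the combination arrays, against 10.58 and 10.16 on the PD-0325901 arrays and 10.54 and 10.42 on the vehicle arrays. All 4 arrays with rapamycin lay below all 4 without it, the nearest being 10.09 and 10.16. The log2 difference, taken between means, was -0.51 (SE 0.13, adjusted p = 0.7523 in limma). Vars, which charges tRNA with valine, measured 10.10 and 10.57 with rapamycin and 10.52 and 10.34 with the combination, against 10.61 and 10.61 with PD-0325901 and 11.04 and 10.93 with vehicle. Its groups did not overlap either, and the vehicle arrays were the highest (difference -0.42, SE 0.12, adjusted p = 0.7739).

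Gars, the glycyl-tRNA synthetase of both compartments, measured 10.47 and 11.03 on the rapamycin arrays and 10.84 and 10.83 on the combination arrays, against 11.15 and 11.18 on the PD-0325901 arrays and 11.13 and 11.19 on the vehicle arrays. The 4 arrays without the drug lay within a narrow band, above all 4 with it (difference -0.37, SE 0.13). Cars, which charges tRNA with cysteine, measured 9.51 and 9.22 with rapamycin and 9.10 and 9.64 with the combination, against 9.80 and 9.65 with PD-0325901 and 9.74 and 9.82 with vehicle. Its groups were parted by combination array 2 at 9.64 and PD-0325901 array 2 at 9.65 (difference -0.39, SE 0.14). The adjusted p was 0.8638 for both genes. The same 4 cytosolic genes, and 0 mitochondrial or scaffold members, lay wholly lower on the arrays with rapamycin, beside 1.94% of all genes. The count of members wholly higher was 0, beside 1.41% of all genes.

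**Figure D1:**
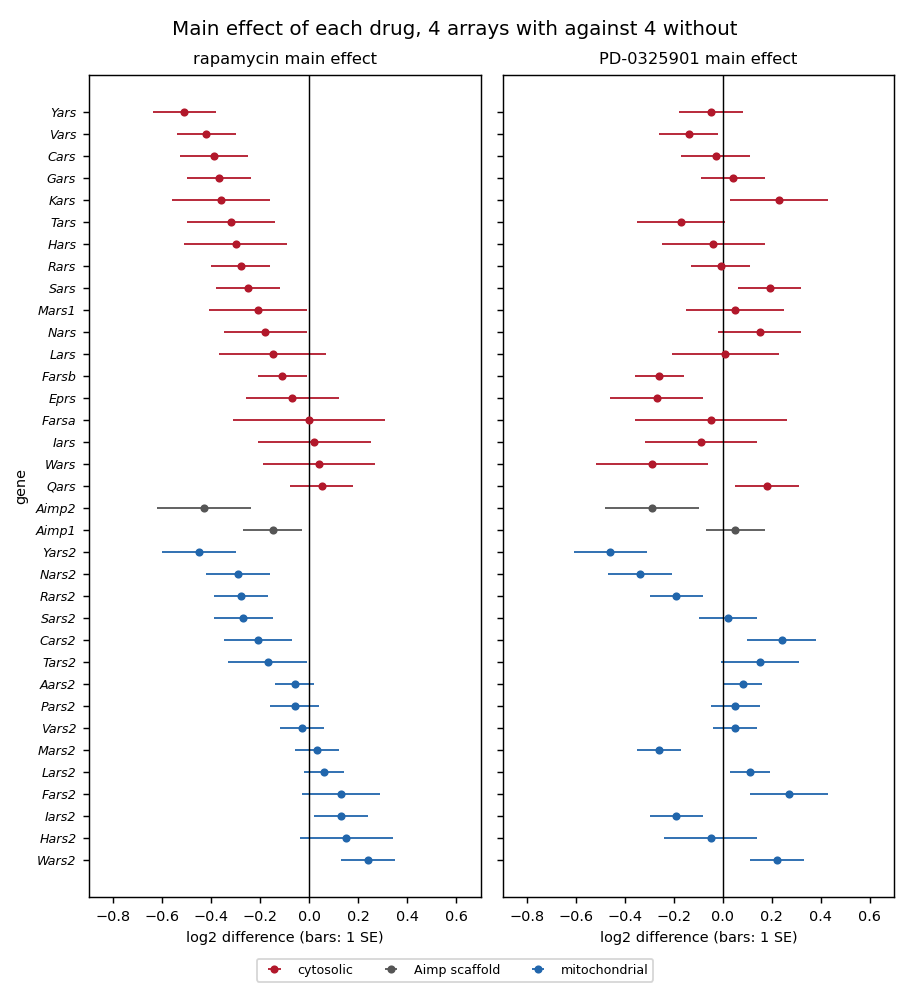
Log2 difference of each member (points, with bars of 1 SE from limma) for the rapamycin main effect (left) and the PD-0325901 main effect (right), 4 arrays with each drug against 4 without it. Most cytosolic points lie left of 0 for rapamycin, with Yars at -0.51, while for PD-0325901 they lie on both sides and Yars2 is the lowest at -0.46.

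The remaining cytosolic members spread from a difference of -0.36 for Kars, the lysyl-tRNA synthetase of both compartments (SE 0.20), to 0.05 for Qars, which charges tRNA with glutamine (SE 0.13). Tars (-0.32), Hars (-0.30), Rars (-0.28), Sars (-0.25) and Mars1 (-0.21), which charge threonine, histidine, arginine, serine and methionine, lay between, each with an SE of 0.12 to 0.21. The difference of Hars was -0.06 when array 1 of rapamycin was left out and -0.53 when array 2 was. Farsa, the alpha subunit of the phenylalanyl-tRNA synthetase, was at -0.00 (SE 0.31), and its arrays in the rapamycin group were 1.39 apart, at 9.29 and 10.68. Its partner subunit Farsb was at -0.11 (SE 0.10). Nars, for asparagine, was at -0.18 (SE 0.17), Lars, for leucine, at -0.15 (SE 0.22), Eprs, which charges glutamate and proline, at -0.07 (SE 0.19) and Wars, for tryptophan, at 0.04 (SE 0.23). Iars, the isoleucyl enzyme, was at 0.02 (SE 0.23), and its other probe set was at 0.01.

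The promoters of the members were searched because the amino acid response acts through a C/EBP-ATF element and growth signals through Myc, whose E-box is among the best known promoter motifs. RefSeq promoter sequences (build GRCm38.p6) were matched for 26 of the 35 members, as 28 sequences, and the 250 bases before each start were read on both strands. The core TGATGNAA (TTNCATCA on the other strand) was found in Gars and Tars, and in 3.45% of all 32851 such sequences. The E-box CACGTG was found in Farsb and Iars, and in 6.02% of all sequences. Neither motif was found in the matched promoters of the other members. A match is a run of letters, not a measured site. The windows below, given on the gene's strand with the matched letters in capitals, lie at chr6:55037955-55037994 (Gars, plus strand), chr15:11399659-11399689 (Tars, minus strand), chr1:78488915-78488952 (Farsb, minus strand) and chr13:49682045-49682082 (Iars, plus strand).
Gars: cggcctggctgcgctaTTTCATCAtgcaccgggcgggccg
Tars: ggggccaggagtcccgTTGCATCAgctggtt
Farsb: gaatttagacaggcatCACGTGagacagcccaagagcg
Iars: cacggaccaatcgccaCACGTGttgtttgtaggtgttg
The element of Gars lies 30 to 23 bases before the start and that of Tars 15 to 8. The E-box lies 39 to 34 bases before the start in Farsb and 69 to 64 in Iars. Tars measured 9.84 and 9.91 with rapamycin and 9.46 and 10.05 with the combination, against 10.32 and 9.72 with PD-0325901 and 10.26 and 10.22 with vehicle. PD-0325901 array 2 was the 1 array without rapamycin that lay among those with it.

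The rapamycin arrays differed from each other more than those of the other groups did. The median gap between the arrays of a group over the 35 members was 0.38 for rapamycin, 0.17 for PD-0325901, 0.21 for the combination and 0.12 for vehicle, where the medians over all genes were 0.20, 0.13, 0.17 and 0.17. Rapamycin array 1 was the lower of its pair for 27 of 35 members. The same array was low for proliferation markers, whose median centred value was -0.66 on rapamycin array 1 and 0.42 on rapamycin array 2. Rapamycin array 2 had the highest skeletal muscle markers, with a median centred value of 1.86. The part of either in the members' values was not tested. Without rapamycin array 1, 14 of 18 cytosolic members were still lower in the main effect, with a median of -0.21.

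**Figure D2:**
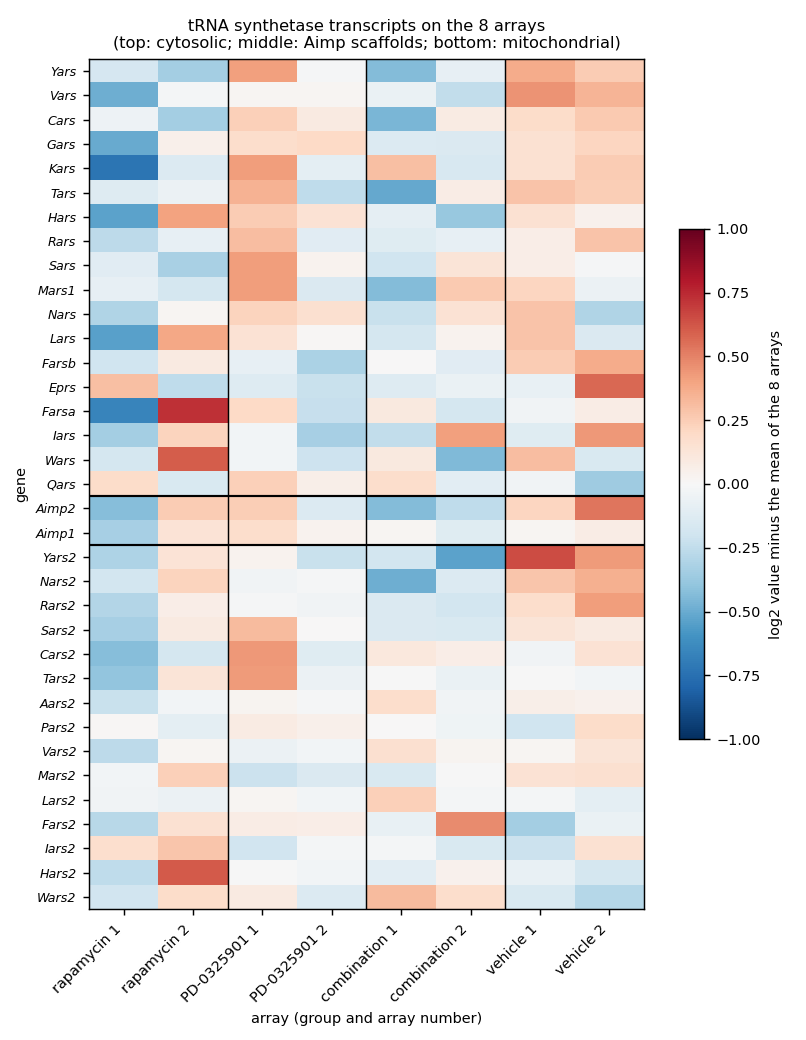
Log2 value of each of the 35 members on each of the 8 arrays, minus the gene's mean over the arrays (colour scale from -1 to 1), with genes ordered within each class by the rapamycin main effect. Rapamycin array 1 is blue for most genes, the vehicle arrays are red for Yars, Vars and Yars2, and Farsa and Hars2 differ in sign between the rapamycin arrays.

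Among the mitochondrial members, Yars2, the mitochondrial tyrosyl-tRNA synthetase, had the largest rapamycin difference (-0.45, SE 0.15, adjusted p = 0.8328 in limma). It measured 8.43 and 8.87 on the rapamycin arrays and 8.55 and 8.20 on the combination arrays, against 8.77 and 8.51 on the PD-0325901 arrays and 9.39 and 9.16 on the vehicle arrays. The vehicle arrays stood above all others, while the arrays with rapamycin overlapped those with PD-0325901 alone. Rars2, for arginine, was at -0.28 (SE 0.11), Nars2, for asparagine, at -0.29 (SE 0.13) and Sars2, for serine, at -0.27 (SE 0.12). At the other end were Wars2, for tryptophan (0.24, SE 0.11), Hars2, for histidine (0.15, SE 0.19), Iars2, for isoleucine (0.13, SE 0.11) and Fars2, for phenylalanine (0.13, SE 0.16). Between them, Cars2 was at -0.21 (SE 0.14), Tars2 at -0.17 (SE 0.16), and Lars2, Mars2, Vars2, Aars2 and Pars2 had differences from -0.06 to 0.06.

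Wars2 measured 9.28 and 9.66 on the rapamycin arrays and 9.79 and 9.65 on the combination arrays, against 9.56 and 9.34 on the PD-0325901 arrays and 9.32 and 9.19 on the vehicle arrays. The vehicle arrays were near the bottom, but rapamycin array 1 lay among them. Iars2 measured 9.79 and 9.90 with rapamycin and 9.60 and 9.47 with the combination, against 9.43 and 9.60 with PD-0325901 and 9.41 and 9.77 with vehicle. Only its arrays with rapamycin alone stood above the rest. Its difference was 0.04 when array 1 of vehicle was left out and 0.22 when array 2 was, and that of Wars2 was 0.15 when array 2 of rapamycin was left out.

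Cytosolic and mitochondrial partners of the same amino acid were then set beside each other in 14 pairs covering 13 amino acids, with Farsa and Farsb both paired to Fars2. In the rapamycin main effect the cytosolic partner had the lower difference in 11 of 14 pairs, and the median of cytosolic minus mitochondrial was -0.16. For PD-0325901 it was lower in 7 of 14, with a median of -0.04. These are counts of paired values, and the difference between the classes was not tested. The classes also differ in signal, with a median gene mean of 10.08 for cytosolic and 8.78 for mitochondrial members. The part of signal level in the contrast was not tested. The rapamycin count was 8 without combination array 1 and 10 to 13 without any other single array.

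The widest rapamycin gap was between Hars and Hars2, with a difference between partners of -0.44. Hars measured 9.31 and 10.25 on the rapamycin arrays and 9.76 and 9.47 on the combination arrays, against 10.10 and 9.99 on the PD-0325901 arrays and 10.00 and 9.89 on the vehicle arrays. Hars2 measured 8.64 and 9.51 with rapamycin and 8.79 and 8.94 with the combination, against 8.89 and 8.87 with PD-0325901 and 8.82 and 8.72 with vehicle. Rapamycin array 2 was the highest of all arrays for both genes, and neither gene's groups were apart.

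The pair of Vars and Vars2 was next, with a gap of -0.39. Vars2 measured 8.79 and 9.07 with rapamycin and 9.21 and 9.08 with the combination, against 8.99 and 9.02 with PD-0325901 and 9.07 and 9.18 with vehicle, and thus overlapped throughout while Vars did not. In the tyrosine pair, Yars and Yars2, both partners were lower and the gap was -0.07. In the arginine pair the gap was 0.00, with both partners at -0.28.

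**Figure D3:**
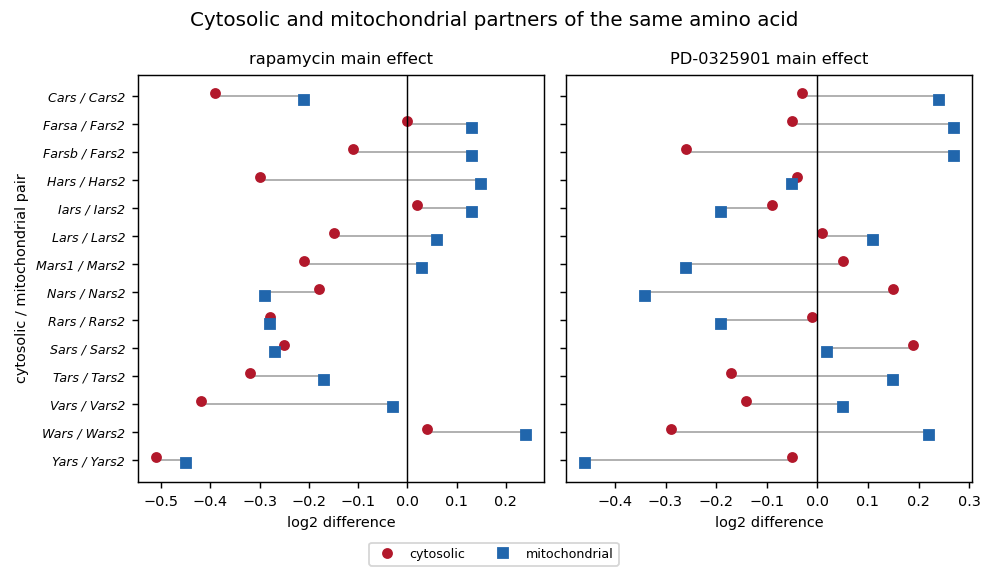
Main effect of rapamycin (left) and PD-0325901 (right) for each cytosolic gene (circles) and its mitochondrial partner (squares), joined by a line, as log2 differences. The circle lies left of the square in 11 of 14 pairs for rapamycin and in 7 of 14 for PD-0325901.

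Rapamycin was next compared with vehicle without the MEK inhibitor. Of the 18 cytosolic members 15 were lower, with a median of -0.24, and 10 of 15 mitochondrial members were lower, with a median of -0.12, where 54.1% of all genes were lower. The adjusted p was 0.9638 or higher for all 35 members in limma, and 0% of all genes passed. The arrays of the groups did not overlap for 10 cytosolic members, all lower, beside 17.9% of all genes lower and 12.5% higher, and for 6 mitochondrial members lower and 1 higher (Iars2). At an unadjusted p under 0.05, Vars (-0.65, SE 0.17), Yars (-0.56, SE 0.19), Farsb (-0.36, SE 0.15), Yars2 (-0.63, SE 0.21) and Rars2 (-0.41, SE 0.15) were lower, beside 2.15% of all genes, and 0 members were higher, beside 2.77%. Leaving out a vehicle array or array 1 of rapamycin turned this count of 5 into 2, and leaving out array 2 of rapamycin turned it into 12. The cytosolic median was -0.46 without rapamycin array 2, -0.39 without vehicle array 1 and -0.23 without rapamycin array 1, and the mitochondrial median -0.28, -0.18 and -0.03.

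The same drug was compared on the background of PD-0325901. In the combination against PD-0325901 alone, 15 of 18 cytosolic members were lower again, with a median of -0.19, and 8 of 15 mitochondrial members, with a median of -0.02, where 52.1% of all genes were lower. Yars had a difference of -0.46 (SE 0.19) and Cars of -0.36 (SE 0.20). These values share no array with rapamycin minus vehicle. The smallest adjusted p was 0.9998, and 0 members passed at an unadjusted p of 0.05, beside 1.27% of all genes lower and 1.74% higher. The combination minus rapamycin, which adds the MEK inhibitor instead, gave 7 of 18 cytosolic members lower (median 0.01) and 7 of 15 mitochondrial members lower (median 0.02), where 51.7% of all genes were lower. There 0 members had an unadjusted p under 0.05, beside 2.71% of all genes lower and 3.95% higher, and the smallest adjusted p was 0.8346.

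On the arrays with PD-0325901 the members showed no shared direction. Of the 18 cytosolic members 11 were lower and 7 higher, with a median of -0.03, and of the 15 mitochondrial members 6 were lower and 9 higher, with a median of 0.05. Over all genes the median was -0.01 and 54% were below 0. The cytosolic count was 7 when array 2 of rapamycin, array 2 of PD-0325901 or array 1 of the combination was left out. No member's arrays with the drug lay wholly apart from those without it, beside 3.34% of all genes higher and 2.39% lower. No member passed an adjusted p of 0.05 in limma (smallest 0.4081), 0% of all genes did, and in the fit of 2 groups of 4 arrays, which called 22 genes, 0 members passed.

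Yars2, Nars2, Mars2 and Farsb were the members lower with PD-0325901 at an unadjusted p under 0.05. Yars2, whose arrays are given above, had a difference of -0.46 (SE 0.15, adjusted p = 0.4081). Nars2 measured 8.38 and 8.40 on the PD-0325901 arrays and 7.93 and 8.28 on the combination arrays, against 8.23 and 8.64 on the rapamycin arrays and 8.69 and 8.77 on the vehicle arrays (difference -0.34, SE 0.13, adjusted p = 0.4811). Its lowest array was a combination array and its highest were the vehicle arrays. Mars2, for methionine, measured 8.49 and 8.56 with PD-0325901 and 8.55 and 8.70 with the combination, against 8.68 and 8.94 with rapamycin and 8.85 and 8.86 with vehicle (difference -0.26, SE 0.09, adjusted p = 0.4353). Its groups overlapped by 1 array on each side.

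Farsb, the beta subunit of the phenylalanyl enzyme, was the 1 cytosolic member with an unadjusted p under 0.05. It measured 9.77 and 9.53 with PD-0325901 and 9.85 and 9.74 with the combination, against 9.65 and 9.94 with rapamycin and 10.10 and 10.22 with vehicle (difference -0.26, SE 0.10, adjusted p = 0.5158). The vehicle arrays were the highest. Those 3 mitochondrial members and Farsb compare with 4.14% of all genes lower at that level, and 0 members higher with 5.47%. The mitochondrial count was 0 when array 2 of rapamycin or of PD-0325901 was left out, 1 when any vehicle array or array 1 of PD-0325901 or of the combination was, 5 when array 1 of rapamycin was, and 1 in the fit of 2 groups of 4. The cytosolic count was 3 when array 1 of rapamycin was left out, 0 when array 2 of any group or array 1 of the combination was, and 0 in the fit of 2 groups of 4. Among members on the higher side, Fars2 was at 0.27 (SE 0.16), Cars2, for cysteine, at 0.24 (SE 0.14) and Wars2 at 0.22 (SE 0.11). Cars2 measured 9.30 and 8.74 with PD-0325901 and 8.97 and 8.93 with the combination, against 8.44 and 8.69 with rapamycin and 8.83 and 9.01 with vehicle. Its lowest values were the rapamycin arrays and its highest was 1 PD-0325901 array, without which its difference was 0.10.

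The widest PD-0325901 gaps between partners were those of Farsb and Fars2 (-0.52) and of Wars and Wars2 (-0.51). Fars2 measured 8.85 and 8.84 with PD-0325901 and 8.70 and 9.25 with the combination, against 8.50 and 8.93 with rapamycin and 8.44 and 8.71 with vehicle. Combination array 2 was its highest array. Wars, the cytosolic tryptophanyl-tRNA synthetase, measured 9.67 and 9.49 with PD-0325901 and 9.79 and 9.25 with the combination, against 9.52 and 10.30 with rapamycin and 10.00 and 9.54 with vehicle (difference -0.29, SE 0.23, and -0.09 to -0.49 with 1 array left out). In human cells Wars is known as a gene induced by interferon gamma. Here 6 of 8 measured interferon-gamma targets were higher with PD-0325901, with a median of 0.35 (3 at an unadjusted p under 0.05), while Wars was on the lower side. Over all genes 54% had a difference below 0, and 5.47% were higher at that level.

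PD-0325901 alone, set against vehicle, gave 11 of 18 cytosolic members lower (median -0.05) and 7 of 15 mitochondrial members lower (median 0.05), where 53.8% of all genes were lower. The cytosolic count was 6, with a median of 0.09, when array 2 of PD-0325901 was left out, and leaving out its array 1 gave a median of -0.26. Yars2 had a difference of -0.64 (SE 0.21, adjusted p = 0.7231), Farsb of -0.51 (SE 0.15, adjusted p = 0.6846) and Mars2 of -0.33 (SE 0.12, adjusted p = 0.8155) in limma. These 3 were the members lower at an unadjusted p under 0.05, beside 2.38% of all genes, 0 members were higher, beside 3.47%, and 0% of all genes passed when adjusted. Their count was 0 when array 2 of PD-0325901 was left out, 1 for array 2 of vehicle and 5 for any rapamycin array. The arrays did not overlap for 9 members lower, beside 20.9% of all genes, and for 4 members higher, beside 17.6%.

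Both drugs together were compared with vehicle, where 17 of 18 cytosolic members were lower, with a median of -0.27, and the mitochondrial members were divided, with 8 of 15 lower and a median of -0.01. Over all genes 53.7% were lower. Qars (0.23, SE 0.19) was the 1 cytosolic member on the higher side. No member passed an adjusted p of 0.05 in limma (smallest 0.3743), and 0% of all genes did. At an unadjusted p under 0.05, 7 members were lower, beside 4% of all genes, and 1 was higher, beside 5.08%. The cytosolic count of lower members was 13 without combination array 1 and 14 without combination array 2. The mitochondrial count was 5 without combination array 2. Of the 7 members lower at an unadjusted p under 0.05, 6 are cytosolic or mitochondrial, a count that was 2 when array 2 of vehicle or array 1 of the combination was left out.

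Yars2 had the largest difference of any member, at 8.55 and 8.20 on the combination arrays against 9.39 and 9.16 on the vehicle arrays (difference -0.90, SE 0.21, adjusted p = 0.3743). The scaffold Aimp2, which holds the multisynthetase complex together, measured 9.32 and 9.50 with the combination and 9.97 and 10.29 with vehicle (-0.72, SE 0.26, adjusted p = 0.4955). Nars2 was at -0.62 (SE 0.18), Yars at -0.57 (SE 0.19), Vars at -0.55 (SE 0.17), Rars2 at -0.47 (SE 0.15) and Farsb at -0.36 (SE 0.15). Wars2 was the 1 member higher at that level, at 9.79 and 9.65 with the combination against 9.32 and 9.19 with vehicle (0.47, SE 0.16, adjusted p = 0.4778). Fars2 (0.40, SE 0.23) and Lars2, for leucine (0.17, SE 0.12), followed on the higher side. Lars2 measured 8.33 and 8.31 with rapamycin, 8.39 and 8.34 with PD-0325901, 8.61 and 8.35 with the combination and 8.35 and 8.27 with vehicle, with 1 combination array above all the others, without which its difference was 0.04. For Fars2 it was 0.12 when array 2 of the combination was left out. Before rounding, the other combination array of Lars2 lay just above its higher vehicle array. The arrays did not overlap for 8 cytosolic members, 5 mitochondrial members and Aimp2, all lower, beside 22.3% of all genes, and for Lars2 and Wars2, both higher, beside 17.9%.

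Whether the drugs acted differently in each other's presence was asked with the interaction term. No member passed in limma (every adjusted p was 0.9999), and 0% of all genes did. The cytosolic median was 0.07 and the mitochondrial median 0.06, where 48.2% of all genes were below 0. Farsb had an interaction of 0.51 (SE 0.21), from -0.36 (SE 0.15) for rapamycin minus vehicle and 0.15 (SE 0.15) for combination minus PD-0325901, and was the 1 member with an unadjusted p under 0.05, beside 1.03% of all genes higher and 1.14% lower.

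Smaller groupings of the members were described for rapamycin. Of 9 members listed as parts of the multisynthetase complex, with Aimp1 and Aimp2 among them, 7 were lower in the rapamycin main effect. Their median was -0.15, with 0 at an unadjusted p under 0.05. Of 11 measured synthetases counted among amino acid response genes, 9 were lower, with a median of -0.21 and 3 at that level (Cars, Gars and Yars). Over all genes 53.8% were lower, 2.4% at that level. Vars, the other cytosolic gene at that level, is in neither group. In the combination against vehicle 8 of 9 and 11 of 11 were lower, where 53.7% of all genes were.

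The other genes of the amino acid response stood in the same direction with rapamycin. Of 21 measured genes 19 were lower in the rapamycin main effect, with a median of -0.27, where 53.8% of all genes were lower, and 5 were lower at an unadjusted p under 0.05, beside 2.4% of all genes (Asns, Cth, Phgdh, Psat1 and Slc7a5), 0 when adjusted. For PD-0325901 9 of 21 were lower, with a median of 0.01, a count that was 6 when array 1 of vehicle or of the combination was left out, 14 for array 2 of rapamycin or array 1 of PD-0325901, and 17 for array 2 of the combination. The count of 19 was 13 without combination array 1. On combination array 2 the median centred value of the list was 0.17, above PD-0325901 array 2 (0.04) and vehicle array 2 (0.06). The count of 5 became 1 when array 1 of PD-0325901 was left out, 2 for array 1 of vehicle, 3 for array 1 of rapamycin or of the combination and 11 for array 2 of the combination. This pattern was known from earlier results of these arrays and is no independent evidence.

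Cth, which makes cysteine from cystathionine, measured 8.02 and 7.14 on the rapamycin arrays and 7.56 and 7.81 on the combination arrays, against 9.25 and 8.26 on the PD-0325901 arrays and 8.80 and 8.29 on the vehicle arrays (difference -1.02, SE 0.30, adjusted p = 0.7739 in limma). All arrays with rapamycin lay below all without. Asparagine synthetase, Asns, measured 10.64 and 9.72 with rapamycin and 9.92 and 10.76 with the combination, against 11.33 and 10.82 with PD-0325901 and 11.23 and 11.19 with vehicle (-0.88, SE 0.28, adjusted p = 0.8260). Its groups did not overlap either. The serine synthesis genes Phgdh (-0.45, SE 0.14) and Psat1 (-0.77, SE 0.26) and the amino acid transporter Slc7a5 (-0.54, SE 0.18) had lower values as well. For Slc7a5 the arrays with and without rapamycin overlapped. Atf4 itself measured 9.42 and 9.58 with rapamycin and 9.21 and 9.56 with the combination, against 9.82 and 9.53 with PD-0325901 and 9.83 and 9.64 with vehicle (-0.26, SE 0.12), and PD-0325901 array 2 lay among the arrays with rapamycin.

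**Figure D4:**
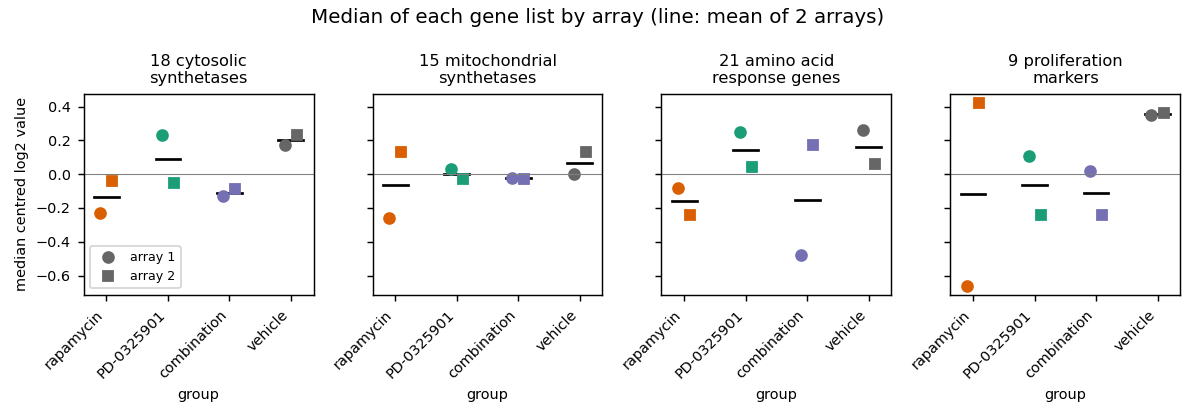
Median over each gene list of the log2 value minus the gene's mean over the 8 arrays, for each array (circles, array 1; squares, array 2) by group, with a line at the mean of the 2 arrays. Cytosolic synthetases sit at -0.23 to -0.04 on the 4 arrays with rapamycin and at 0.17 and 0.23 on the vehicle arrays. On the PD-0325901 arrays they sit at 0.23 and -0.05, and -0.05 lies within the range of the arrays with rapamycin. The amino acid response genes spread from -0.48 to 0.17 within the combination and the proliferation markers from -0.66 to 0.42 within rapamycin. For the amino acid response genes, 0.17 lies above array 2 of PD-0325901 (0.04) and of vehicle (0.06).

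Proliferation markers had lower values with each drug, also with PD-0325901, where the members showed no shared direction. Of 9 measured, 9 were lower in the rapamycin main effect (median -0.37), 9 with PD-0325901 (median -0.30) and 9 in the combination against vehicle (median -0.60), 0, 0 and 2 of them at an unadjusted p under 0.05. Over all genes 53.8%, 54% and 53.7% were lower in these comparisons, and 2.4%, 4.14% and 4% were lower at that level. The mean log2 level of these markers was 9.53 to 10.68 on the 4 arrays with rapamycin and 9.88 to 10.61 on the 4 without it. Skeletal muscle markers were higher with rapamycin in 6 of 6 (median 0.57), 0 of them at an unadjusted p under 0.05, beside 3.15% of all genes. Their mean level was 7.84 to 10.59 with and 7.89 to 8.74 without the drug. Rapamycin array 1 was at 7.84 and rapamycin array 2 at 10.59. The part of proliferation or muscle markers in the members' values was not tested. The other marker lists had rapamycin medians of -0.15 (macrophage), -0.06 (T and NK cells), 0.03 (endothelium), 0.05 (fibroblast), -0.38 (erythroid), -0.08 (Schwann lineage) and -0.02 (interferon-gamma targets). With PD-0325901, 9 of 10 macrophage markers were higher (median 0.39, 6 at an unadjusted p under 0.05). So were 10 of 10 T and NK cell markers (median 0.69, 7 at that level), while 7 of 7 endothelial markers were lower (median -0.51, 4 at that level). Over all genes 54% were lower, 4.14% at that level, and 5.47% were higher at that level. The part of these 3 lists in the members' values was not tested. The other PD-0325901 medians were 0.42 for fibroblast, 0.29 for erythroid, 0.01 for Schwann lineage and -0.01 for skeletal muscle markers.

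Other genes of tRNA charging were listed as 16 partners. In the rapamycin main effect 12 of 16 were lower, with a median of -0.10, and for PD-0325901 11 of 16, with a median of -0.10, and 0 had an unadjusted p under 0.05 in either. Over all genes 53.8% and 54% were lower. Tarsl2, a second cytosolic threonyl-tRNA synthetase, was at -0.31 (SE 0.18) for rapamycin and -0.38 (SE 0.18) for PD-0325901. Prorsd1, a prolyl-tRNA editing protein, was at -0.11 (SE 0.14) and 0.28 (SE 0.14), and Ears2, the mitochondrial glutamyl-tRNA synthetase, at -0.03 (SE 0.13) and -0.26 (SE 0.13). Dtd1, which removes D-amino acids from tRNA, was at -0.20 (SE 0.11) and 0.14 (SE 0.11).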

How the data were processed

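RNA was amplified with a whole-transcript kit, labelled with biotin and hybridised to arrays, per the labels' protocols. The authors deposited log2 values, 1 for each probe set and array, ranging from 3.36 to 14.36 with array medians of 7.79 to 7.90. The unit was read from the values, and the sources used here do not give the software or normalization. Of 35512 probe sets, 21789 have a single gene symbol in the platform annotation and 1621 several. Precision is limited by the number of arrays.

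limma 3.58.1 in R 4.3.3 fitted the 4 group means to 8 arrays and 19938 genes, with no filter on low values. Adjusted p-values are Benjamini-Hochberg over all genes. An exact permutation test of 2 arrays against 2 has 0.333 as its smallest p. The code was tested on simulated data. The members and all lists (2 groupings of synthetases, 16 charging partners, 22 amino acid response genes of which 21 were measured, and 9 marker lists) were chosen from textbook knowledge with earlier results of these data known.

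By rule, values on every array are given for up to 3 members per direction with the smallest unadjusted p in each main effect and in combination minus vehicle, and for the 2 widest pairs per drug. From the charging partner and amino acid response lists up to 4 genes with the smallest p are named. The array values of Cars, Gars, Farsa, Aimp2, Tars, Cth, Asns and Atf4, and the mention of Psat1, were chosen after their values were seen. The settings varied were normalization (quantile), centring on array medians, a filter at the median level, the variance prior (trend, robust), averaging a gene's probe sets, an array-number block, smaller fits and each array left out.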

Additional observations from a re-analysis of the deposited data

How the results depend on the processing

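No member was called (limma, 0 at an adjusted p of 0.05) under quantile normalization, centring, the level filter, the robust trended prior, averaged probe sets or with each array left out, in the main effects, the interaction and each treatment minus vehicle, nor in smaller fits, which were run for all of these but the interaction. Combination minus PD-0325901 and combination minus rapamycin were not refitted. Over all genes, where 0 were called, the fit of 2 groups of 4 called 22 for PD-0325901. Leaving out vehicle array 2 called 2 to 9 in these comparisons, and in rapamycin minus vehicle leaving out rapamycin array 1 called 4 and rapamycin array 2 called 15. With the array number as a replicate block 0 members were called as well, and the rapamycin count of cytosolic members lower at an unadjusted p under 0.05 was 3. Same-numbered arrays did not deviate together (correlations of -0.2778 to 0.1831 between groups), so the numbers were not read as pairs. Leaving out 1 array at a time gave 2 to 6 for that rapamycin count, 7 to 13 cytosolic members lower with PD-0325901 and 6 to 13 in PD-0325901 minus vehicle, and 5 to 10 mitochondrial members lower in combination minus vehicle. It gave medians of -0.46 to -0.23 (cytosolic) and -0.28 to -0.03 (mitochondrial) in rapamycin minus vehicle, -0.26 to 0.09 (cytosolic) in PD-0325901 minus vehicle, and -0.08 to 0.22 (cytosolic) and 0 to 0.22 (mitochondrial) for the interaction. With 1 array left out, the rapamycin difference ran from -0.0049 (combination array 2 out) to 0.27 for Fars2, from -0.07 (rapamycin array 2 out) to 0.36 for Hars2 and from -0.1 to 0.05 for Vars2, whose sign turned when rapamycin array 1 (0.05), combination array 2 (0.01) or vehicle array 2 (0.0025) was out. The cause of these shifts was not tested. The pair and amino acid response counts under these settings were added after the data were seen.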
